A study of Mus musculus with 32 samples.

Results

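Kinesin motors were followed in the frontal cortex (FCtx) of mice that drank ethanol and of controls that did not, through every array probe whose gene symbol was Kif1a, Kif1b, Kif3a, Kif3b, Kif3c, Kif5a, Kif5b, Kif5c, Kif21a or Kif21b. The 10 genes had 21 of the 25697 probes. Of these, 16 probes of 8 genes were detected on enough arrays to be tested, among 10187 probes tested in all. Each of 32 female F1 mice of the strains C57BL/6J and FVB/NJ gave 1 Illumina MouseRef-8 v2.0 array of labelled cRNA from FCtx total RNA. The labels name the cross C57BL/6J x FVB/NJ alone while the Methods name crosses in both directions, so the direction for each array is not known here. The 20 ethanol-treated mice chose between 20% ethanol and water in a limited session in the dark over 20 days, and the 12 controls received water and no ethanol. Every mouse had its own array, so a replicate was a mouse, and the drinking was voluntary, so intake was not a set dose.

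The layout of the arrays bears on each result. A chip carries 8 arrays at positions A to H. Chips 1 and 2 held ethanol-treated mice alone and chip 4 held controls alone. Chip 3 was shared: 4 mice of the ethanol group took its positions A, C, E and G (odd below), alternating with 4 controls in B, D, F and H (even below). Treatment and chip therefore cannot be told apart on chips 1, 2 and 4, and treatment and odd or even position cannot be told apart on chip 3. On every chip the odd positions also held the lower mouse numbers of the labels and the even positions the higher ones. A difference between odd and even positions therefore cannot be told apart from one that goes with mouse number. By the Methods, RNA was extracted in batches that mixed the groups, and the labels do not tie arrays to batches.

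Kinesins are motors that use ATP to walk along microtubules, mostly towards the plus ends that point to the axon terminal. In neurons they carry vesicle precursors, mitochondria, RNA granules and receptors from the cell body into axons and dendrites. Kif5a, Kif5b and Kif5c are heavy chains of kinesin-1, which binds much of its cargo through light chains. Kif3a pairs with Kif3b or Kif3c to form kinesin-2, which also works in cilia. Kif1a and Kif1b belong to kinesin-3, carriers of synaptic vesicle precursors and, for one Kif1b isoform, of mitochondria. Kif21a and Kif21b belong to kinesin-4 and also limit the growth of microtubules.

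Probes of the same gene gave different results below, so the probes concerned are shown here. Each line gives the first 30 of the probe's bases as the array annotation lists them, 5′ to 3′ in the sense of the transcript. Capitals mark bases past a gap in the alignment of the probe, in the block of genome coordinates that comes second along the probe. For a probe on the minus strand, that block has the lower coordinates. The annotation names no genome build for its coordinates.
Kif1b ILMN_2654314: gacctcattagaaagccagggaaagtaagg
Kif1b ILMN_2670778: gagtggcgtctcctgtcaccatccccatgc
Kif3c ILMN_2590729: cggagagaaccagagcccttctccccttac
Kif3c ILMN_2593410: tgaaaaatcaatccattctttaccacttgt
Kif3a ILMN_2765513: ggacccaaaggatgctctgctccgCCAGTT
Kif3a ILMN_2621148: ggcttacattctgaagatgcagtttgtgtg
Kif5a ILMN_3065852: tggccagccttccctcctcggcaagatgta
Kif5a ILMN_3143833: tatcaacgacaacAGGAGTGACCTGCCGTG

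Both Kif1b probes shown lie on the minus strand of chromosome 4. ILMN_2654314 is at chr4:148552398-148552447 and starts at base 8081 of transcript variant 2, and ILMN_2670778 is at chr4:148550736-148550785 and starts at base 9743 of the same transcript. The Kif3c probes lie on the plus strand, ILMN_2590729 at chr12:3403781-3403830 from base 4136 and ILMN_2593410 at chr12:3403945-3403994 from base 4300. Kif3a ILMN_2765513 is split between chr11:53392438-53392461 and chr11:53392602-53392627, plus strand, from base 1206 of the transcript. The other Kif3a probe, ILMN_2621148, is at chr11:53406708-53406757 from base 2820. Kif5a ILMN_3065852 is at chr10:126628875-126628924, minus strand, from base 5738, and is annotated as specific to 1 isoform. Kif5a ILMN_3143833 is split between chr10:126632769-126632805 and chr10:126633098-126633110, from base 3167, and is annotated as common to all isoforms. The longest run of bases shared by probes of different kinesin genes was 10, between Kif21a ILMN_2718716 and Kif21b ILMN_1244605.

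Between 9480 and 11544 probes were detected per array, and each kinesin probe was read by 23 to 63 beads per array. The control array C66 had the fewest detected probes. Markers of cortical excitatory neurons were detected by 5 probes of 4 genes, with a mean level per array between 11.67 and 12.16. The dissection leaves out the olfactory bulb, yet 6 probes for 5 of its marker genes were detected, with a mean level that ranged from 7.82 to 9.79. All levels and differences here are on the log2 scale after variance stabilization and quantile normalization, which understates the fold change of dim probes. Levels of different probes are not comparable, since probes differ in brightness for the same RNA.

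In the comparison of all 32 arrays, 1 kinesin probe was higher in ethanol-treated mice and 1 was lower. The probe that rose was Kif1b ILMN_2654314, by 0.35, or 1.28-fold, and the probe that fell was Kif3c ILMN_2590729, by 0.19 on the log2 scale. At a false discovery rate (FDR) below 1%, 2 of 16 kinesin probes were thus called, while 8.18% of all probes were. At an FDR below 10%, 3 of 16 were called, against 25.4% of all probes, the added one being Kif3a ILMN_2765513. The median difference was 0.048 over the kinesin probes and -0.0039 over all probes, and 11 kinesin probes had a higher mean in ethanol-treated mice and 5 a lower one. Because FCtx is bulk tissue, fewer cells of a type and less RNA per cell cannot be told apart in any of these values.

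**Figure D1:**
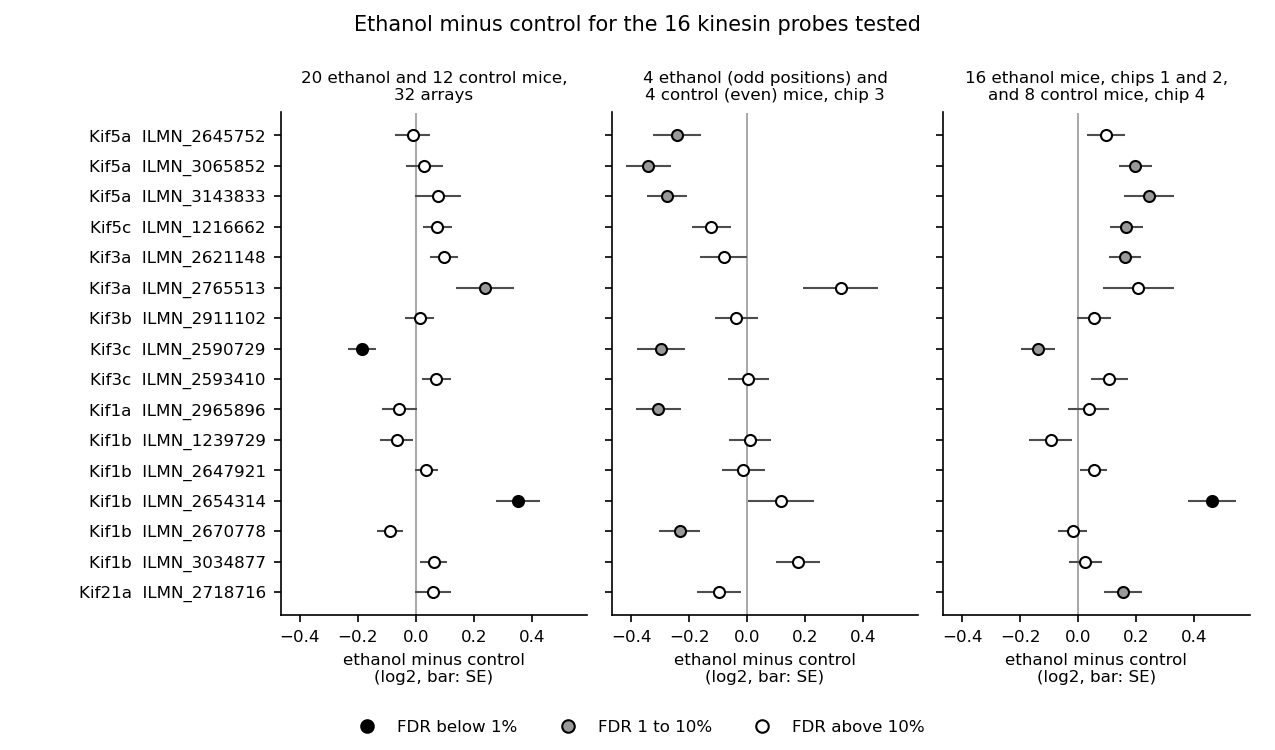
Difference of the normalized signal between ethanol-treated mice and controls (log2, points; bars are SE) for the 16 tested kinesin probes, over all 32 arrays, on chip 3 and between chips 1 and 2 and chip 4. Kif1b ILMN_2654314 stands at 0.35 over the 32 arrays and Kif3c ILMN_2590729 at -0.19, and the Kif5a probes lie below 0 on chip 3 and above 0 between the other chips.

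Kif1b ILMN_2654314 ranged over the 20 ethanol-treated mice from 8.46 to 9.40 with a median of 9.04, and over the 12 controls from 8.36 to 9.05 with a median of 8.66. In 19 of 20 ethanol-treated mice the level was above the control median and in 9 it was above the highest control, so the groups overlapped. The difference was 0.35 (SE 0.08, adjusted p = 0.0014 in limma). The signals before normalization had a mean of 606 ± 87.3 (SD, n = 20) in the ethanol group and 430 ± 116 (SD, n = 12) in the control group. Before normalization every kinesin probe had the higher mean in the ethanol group, also Kif3c ILMN_2590729 (489 and 479), called lower after it. The median signal per array was 166 to 203 in the ethanol group and 146 to 187 in the control group.

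Kif1b ILMN_2654314 was also compared within separate sets of chips. On chips 1 and 2 the ethanol-treated mice averaged 9.06 ± 0.21 (SD, n = 16), and on chip 4 the controls averaged 8.597 ± 0.20 (SD, n = 8), a difference of 0.46 (SE 0.08, adjusted p = 1.7e-04). On chip 3 the ethanol-treated mice were at 9.40, 9.03, 8.73 and 8.91, and the controls at 8.90, 9.05, 8.97 and 8.68. These overlapped, and the difference on chip 3 was 0.12 (SE 0.11, adjusted p = 0.55). The controls on chip 3 thus lay above most controls of chip 4. The difference on chip 3 minus that between the other chips was -0.34 (SE 0.16, adjusted p = 0.18). Among odd positions alone the probe was higher by 0.45 (SE 0.13, adjusted p = 0.028) and among even positions alone by 0.29 (SE 0.08, adjusted p = 0.048), neither of which reached an FDR below 1%. In neither of these fits did a chip hold both groups, so treatment and chip cannot be told apart there. With chip as a fixed block the difference was 0.12 (SE 0.14, adjusted p = 0.69). This repeats the chip 3 difference, since only chip 3 held both groups.

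The other tested probes of Kif1b did not follow ILMN_2654314. ILMN_2670778, the brightest, had a mean of 12.58 ± 0.11 (SD, n = 20) in the ethanol group and 12.67 ± 0.13 (SD, n = 12) in the control group, a difference of -0.090 (SE 0.05, adjusted p = 0.16). The differences of ILMN_1239729, ILMN_2647921 and ILMN_3034877 were -0.066, 0.037 and 0.062, none with an adjusted p-value below 0.37. ILMN_3034877 is annotated to transcript variant 1, whereas ILMN_2654314 and ILMN_2670778 are annotated to variant 2. ILMN_1239729 and ILMN_2647921 are annotated to the same transcript as ILMN_2654314. When each probe was set against the brightest tested probe of its gene within the same array, ILMN_2654314 rose by 0.44 relative to ILMN_2670778 (SE 0.08, adjusted p = 1.7e-04). In that comparison 128 of 2261 probes of all genes were called at an FDR below 1%, which is 5.66%. With both chip and odd or even position in the fit, the relative difference was 0.20 (adjusted p = 0.85).

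**Figure D2:**
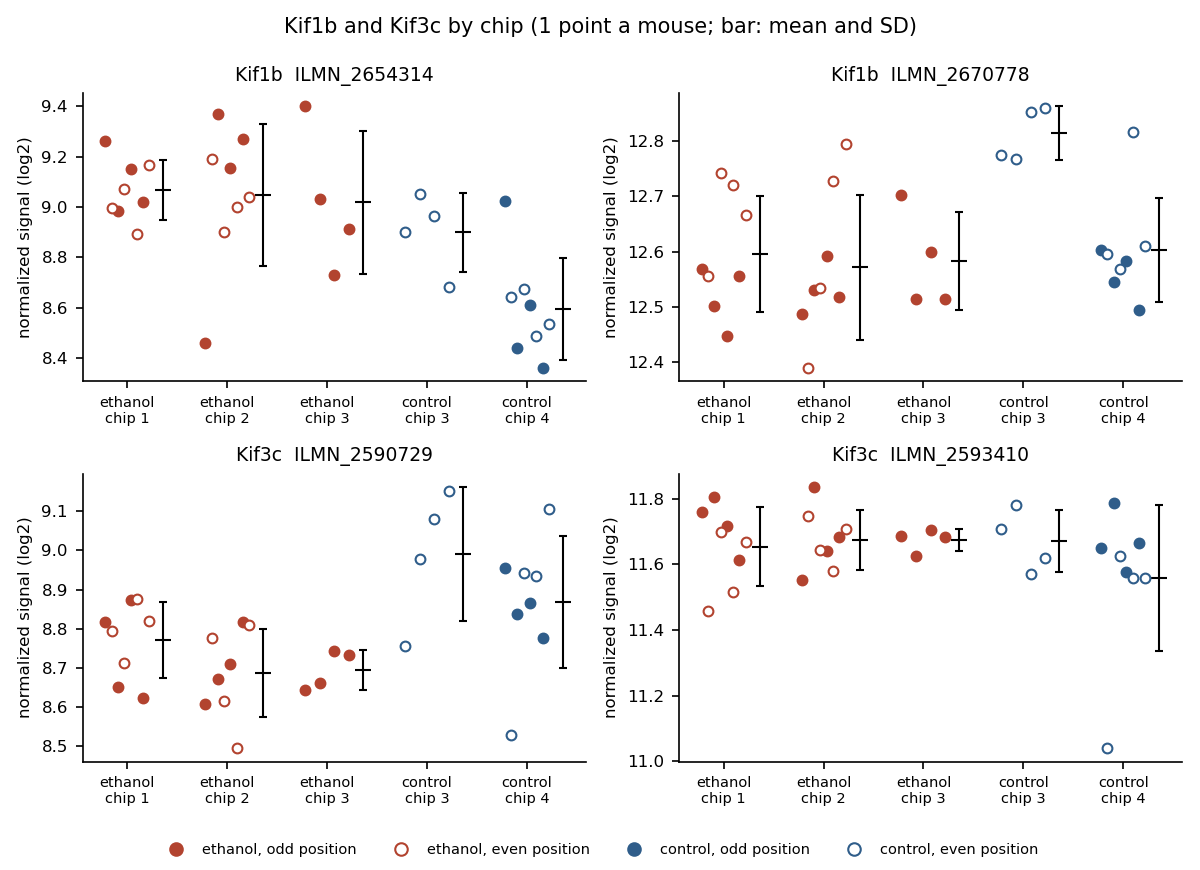
Normalized signal (log2) of 2 Kif1b probes and 2 Kif3c probes in each mouse, by treatment and chip, with filled points for odd positions and open points for even positions, and bars for the mean and SD. Kif1b ILMN_2654314 is lowest on average in the controls of chip 4 (8.36 to 9.02), whereas Kif1b ILMN_2670778 is highest on average in the controls of chip 3 (12.77 to 12.86).

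Kif3c forms a kinesin-2 with Kif3a in neurons. Its probe ILMN_2590729 ranged over the ethanol-treated mice from 8.49 to 8.88 with a median of 8.72, and over the controls from 8.53 to 9.15 with a median of 8.94. No ethanol-treated mouse was above the control median, and 1 was below the lowest control. The difference was -0.19 (SE 0.05, adjusted p = 0.0064). On chip 3 the ethanol-treated mice were at 8.64, 8.66, 8.74 and 8.73, and the controls at 8.76, 8.98, 9.08 and 9.15. All 4 controls lay above all 4 ethanol-treated mice there, and the difference was -0.30 (SE 0.08, adjusted p = 0.032). Between chips 1 and 2 and chip 4 it was -0.14 (SE 0.06, adjusted p = 0.077). The means at even and odd positions of chips 1, 2 and 4 differed by 0.017 (SE 0.05, adjusted p = 0.87). Kif3c ILMN_2590729 therefore had the same direction in each set of arrays, with an adjusted p-value below 0.01 only over the 32 arrays. That call was lost without any 1 of the controls C54, C55, C56, C57, C64, C65 or C66, with the adjusted p-value reaching 0.017 and the difference between -0.22 and -0.17 over the 32 omissions.

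The other Kif3c probe, ILMN_2593410, had a mean of 11.67 ± 0.093 (SD, n = 20) in the ethanol group and 11.59 ± 0.19 (SD, n = 12) in the control group. It differed by 0.071 (SE 0.05, adjusted p = 0.34), the opposite sign to ILMN_2590729, although the 2 probes start 4136 and 4300 bases into the same transcript. Within arrays, ILMN_2590729 fell by 0.26 relative to ILMN_2593410 (SE 0.06, adjusted p = 0.0024). With chip and odd or even position in the fit this was -0.16 (adjusted p = 0.83).

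Kif3a is the subunit common to both forms of kinesin-2. ILMN_2765513 ranged from 10.46 to 11.37 (median 10.79) in ethanol-treated mice and from 10.28 to 11.35 (median 10.58) in controls. The groups overlapped over most of their range, and the difference of 0.24 (SE 0.10, adjusted p = 0.089) passed only an FDR of 10%. ILMN_2621148 averaged 10.60 ± 0.12 (SD, n = 20) and 10.50 ± 0.14 (SD, n = 12), a difference of 0.096 (SE 0.05, adjusted p = 0.16).

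Odd or even position, which goes with mouse number on each chip, separated the Kif3a probes from each other. At odd positions of chips 1 and 2, ILMN_2765513 ranged from 10.65 to 11.37 with a median of 11.18, and at even positions from 10.46 to 11.02 with a median of 10.64. On chip 4 the odd controls were at 11.35, 11.01, 10.77 and 10.53, and the even controls at 10.57, 10.28, 10.39 and 10.52. On each of these chips the odd positions had the higher mean, with some overlap. Within chips 1, 2 and 4, where treatment does not vary, even positions were lower by 0.43 (SE 0.08, adjusted p = 0.0020). It was the one kinesin probe of 16 called between even and odd positions at an FDR below 1%, against 3.05% of all probes. ILMN_2621148 gave 0.026 (SE 0.05, adjusted p = 0.78) in that comparison. Relative to ILMN_2765513 within each array, ILMN_2621148 was higher at even positions by 0.45 (adjusted p = 3.4e-04), while 3.14% of such probe pairs were called. With chip and position both in the fit, the ethanol difference of ILMN_2765513 was -0.10 (SE 0.18, adjusted p = 0.90).

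**Figure D3:**
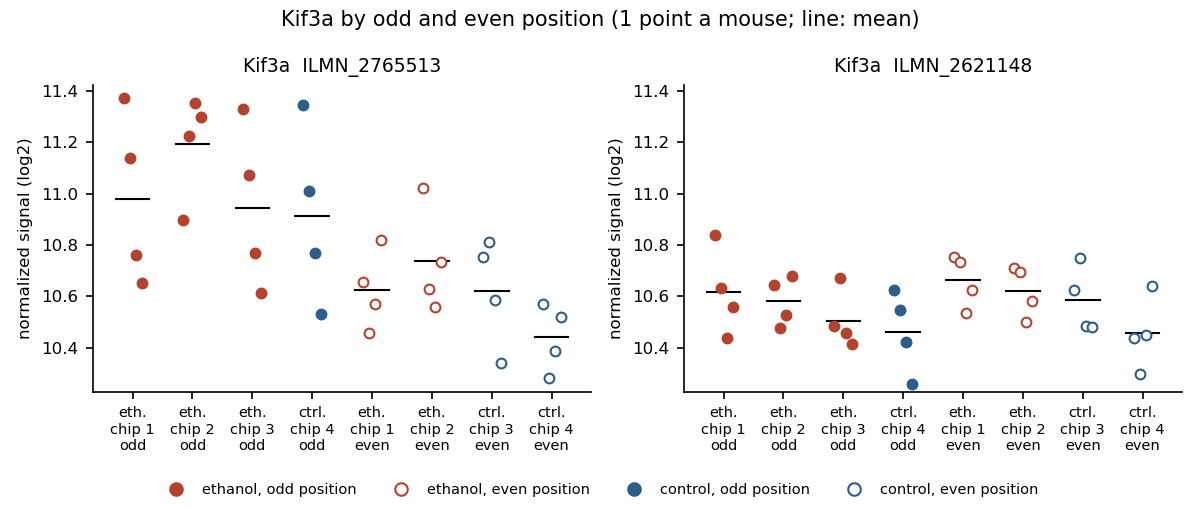
Normalized signal (log2) of both Kif3a probes in each mouse, grouped by odd and even position, treatment and chip, on a common vertical axis with lines for means. ILMN_2765513 spans 10.28 to 11.37 and is higher on average at odd positions on every chip, and ILMN_2621148 spans 10.26 to 10.84 with no such step.

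Kif3b, the other partner of Kif3a, had 1 probe, ILMN_2911102. It had a mean of 7.70 ± 0.14 (SD, n = 20) in the ethanol group and 7.68 ± 0.13 (SD, n = 12) in the control group, and differed by 0.014 (SE 0.05, adjusted p = 0.88). No comparison between treatments, chips or positions gave Kif3b an adjusted p-value below 0.10.

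No kinesin-1 heavy chain probe was called over the 32 arrays, and the differences had opposite signs in the separate sets of arrays. Kif5a, the neuronal kinesin-1 heavy chain, had 3 tested probes with differences of 0.029, 0.077 and -0.011, and Kif5c, also enriched in neurons, had 1 with a difference of 0.074 (SE 0.05, adjusted p = 0.32). ILMN_3065852, the brightest Kif5a probe, averaged 12.99 ± 0.14 (SD, n = 20) and 12.96 ± 0.24 (SD, n = 12).

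On chip 3, Kif5a ILMN_3065852 was at 12.89, 12.82, 12.89 and 13.09 in the ethanol-treated mice and at 13.14, 13.38, 13.29 and 13.24 in the controls. All 4 controls were above all 4 ethanol-treated mice, and the difference was -0.34 (SE 0.08, adjusted p = 0.011). Between chips it ran the other way. The ethanol-treated mice of chips 1 and 2 averaged 13.002 ± 0.15 (SD, n = 16) and the controls of chip 4 averaged 12.80 ± 0.097 (SD, n = 8), a difference of 0.20 (SE 0.06, adjusted p = 0.013). The difference on chip 3 minus that between chips was -0.54 (SE 0.11, adjusted p = 0.0017), a contrast in which 3.17% of all probes were called at an FDR below 1%. With odd or even position as a covariate it was -0.38 (adjusted p = 0.032).

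The second Kif5a probe, ILMN_3143833, had the same pattern. The ethanol-treated mice of chip 3 were at 8.46, 8.48, 8.32 and 8.41, and the controls at 8.63, 8.79, 8.71 and 8.64, a difference of -0.28 (SE 0.07, adjusted p = 0.021) with no overlap. Between chips 1 and 2 and chip 4 the difference was 0.24 (SE 0.09, adjusted p = 0.038). Kif5a ILMN_2645752 gave -0.24 (SE 0.08, adjusted p = 0.077) on chip 3 and 0.097 (SE 0.07, adjusted p = 0.30) between chips. Kif5c ILMN_1216662 was at 12.50, 12.61, 12.54 and 12.61 in the ethanol-treated mice of chip 3 and at 12.77, 12.63, 12.70 and 12.66 in the controls. These did not overlap either, with a difference of -0.12 (SE 0.07, adjusted p = 0.26), and Kif5c was higher by 0.17 (SE 0.06, adjusted p = 0.035) between chips.

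**Figure D4:**
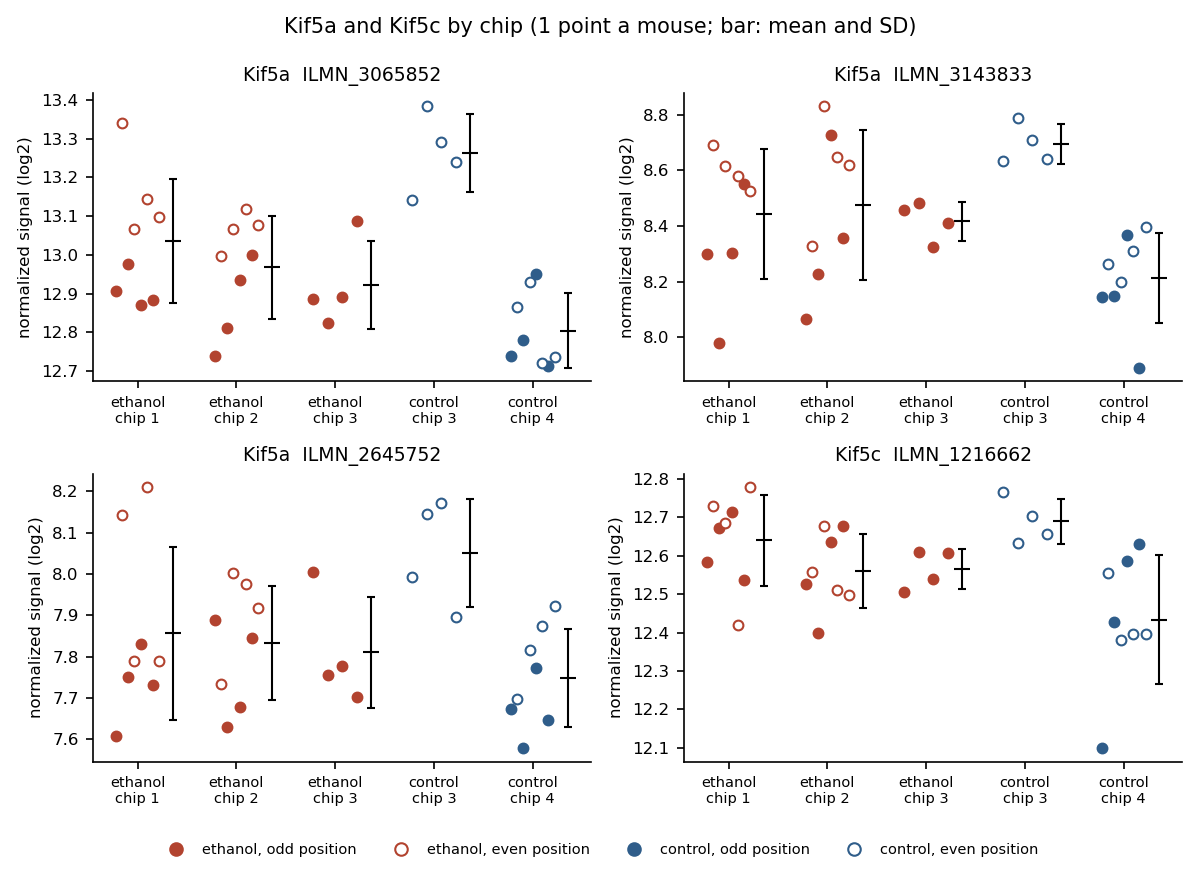
Normalized signal (log2) of the 3 tested Kif5a probes and of Kif5c in each mouse, by treatment and chip, with filled points for odd and open points for even positions, and bars for the mean and SD. Kif5a ILMN_3065852 is highest on average in the controls of chip 3 (13.14 to 13.38) and lowest on average in the controls of chip 4 (12.71 to 12.95), and on chips 1 and 2 the even positions lie above nearly all odd ones.

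All 3 Kif5a probes were also higher at even than at odd positions of chips 1, 2 and 4, by 0.19 for ILMN_2645752 (SE 0.05, adjusted p = 0.020), by 0.15 for ILMN_3065852 (SE 0.05, adjusted p = 0.028) and by 0.25 for ILMN_3143833 (SE 0.07, adjusted p = 0.021). For ILMN_3065852 the odd positions of chips 1 and 2 spanned 12.74 to 13.0001 and the even positions 12.996 to 13.34, so that they met only at their ends. On chip 4 they spanned 12.71 to 12.95 and 12.72 to 12.93. The ethanol difference of this probe at even minus odd positions was 0.21 (SE 0.09, adjusted p = 0.84). It was the only kinesin probe of 16 with an unadjusted p-value below 0.05 in that contrast, as were 571 of the 10187 probes, and limma called 0 probes there at an FDR below 10%.

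Kif5b, the kinesin-1 heavy chain found in most cell types, was not detected by either of its probes on any of the 32 arrays. The signals of these probes lay between 107 and 204 before normalization, and they were not well above background, so no difference is given.

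In kinesin-3, Kif1a ILMN_2965896 had a mean of 8.86 ± 0.19 (SD, n = 20) in the ethanol group and 8.92 ± 0.15 (SD, n = 12) in the control group, a difference of -0.057 (SE 0.06, adjusted p = 0.55). The ethanol-treated mice of chip 3 were at 8.79, 8.63, 8.83 and 8.72, and the controls at 8.96, 8.94, 9.17 and 9.12. The groups did not overlap there, and Kif1a was lower by 0.31 (SE 0.08, adjusted p = 0.020). At even positions of chips 1, 2 and 4 it was higher by 0.20 (SE 0.06, adjusted p = 0.020), and between chips 1 and 2 and chip 4 it differed by 0.036 (SE 0.07, adjusted p = 0.75). Kif1b ILMN_2670778 also had no overlap on chip 3, with the ethanol-treated mice at 12.70, 12.51, 12.60 and 12.51 and the controls at 12.78, 12.77, 12.85 and 12.86, a difference of -0.23 (SE 0.07, adjusted p = 0.046).

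In kinesin-4, Kif21a ILMN_2718716 averaged 10.13 ± 0.17 (SD, n = 20) and 10.07 ± 0.19 (SD, n = 12), a difference of 0.059 (SE 0.06, adjusted p = 0.54). It was higher by 0.16 (SE 0.07, adjusted p = 0.080) between chips 1 and 2 and chip 4, and by 0.15 (SE 0.05, adjusted p = 0.066) at even positions. Kif21b, which is neuronal, was detected by ILMN_1254763 on 2 arrays of ethanol-treated mice and 5 of controls and by ILMN_1244605 on none, and was not tested. A further Kif1b probe, ILMN_3108623, was detected on 0 of the 32 arrays.

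On chip 3 as a whole, 0 of 16 kinesin probes were called by limma at an FDR below 1%, against 3.15% of all probes. At an unadjusted p-value below 0.05, 8 of them differed, as did 2725 of the 10187 probes. At an FDR below 10% the count was 6, all lower in ethanol-treated mice, against 8.22% of all probes called lower and 16.1% called in either direction. The 6 were Kif1a, Kif1b ILMN_2670778, Kif3c ILMN_2590729 and the 3 Kif5a probes. On chip 3, 6 kinesin probes had groups that did not overlap, against 15.2% of all probes. Between chips 1 and 2 and chip 4, 1 kinesin probe was called at an FDR below 1%, against 11.7% of all probes, and 7 at an FDR below 10%, against 31.9%. Of the 7, 6 were higher in ethanol-treated mice, as were 15.1% of all probes. The sign on chip 3 was opposite to that between chips for 10 of 16 kinesin probes and for 49.1% of all probes. The median over kinesin probes was -0.089 on chip 3 and 0.10 between chips, beside -0.00078 and -0.0072 over all probes.

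Between even and odd positions, 6 kinesin probes were called at an FDR below 10%, against 20.3% of all probes. They were the 3 Kif5a probes, Kif1a and Kif21a, higher at even positions, and Kif3a ILMN_2765513, lower. With chip and odd or even position both in the fit, limma called 0 kinesin probes at an FDR below 10%, against 0.0687% of all probes. At an unadjusted p-value below 0.05, 3 of 16 differed in that fit, as did 968 of the 10187 probes.

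Levels of marker lists for other tissue and cells were set beside these results, and on chip 3 they did not all run the same way. There the mean level of 5 probes for cortical excitatory neuron markers was 11.79 to 11.86 in the ethanol-treated mice and 11.96 to 12.16 in the controls. That of 6 probes for olfactory bulb markers was 8.85 to 9.11 in the ethanol-treated mice and 8.05 to 8.73 in the controls, and that of 17 probes for oligodendrocyte markers was 9.63 to 9.85 and 9.77 to 10.38. The 6 probes for markers of neurons in general had a mean of 12.32 to 12.38 in the ethanol-treated mice and 12.12 to 12.31 in the controls, higher without overlap and opposite to the excitatory neuron markers. The 9 astrocyte probes were also higher without overlap, at 10.10 to 10.19 and 9.97 to 10.07. The microglia list (8.38 to 8.52 and 8.38 to 8.48) and the striatum list (8.23 to 8.47 and 8.35 to 8.70) overlapped. Slc17a7, the vesicular glutamate transporter of cortical excitatory neurons, differed by -0.46 on chip 3 and by 0.19 at even minus odd positions. Their part in the Kif5a, Kif1a and Kif3c differences of chip 3 was not tested. At even minus odd positions the median difference was 0.14 for the excitatory neuron markers and -0.34 for the olfactory bulb markers, and their part in the Kif3a and Kif5a differences was not tested. Over the 32 arrays, 3 of 5 excitatory neuron probes fell at an FDR below 1% (Slc17a7, Tbr1 and Nrgn). At an FDR below 10%, 1 of the 5 was higher and 3 were lower. Among the other lists, 1 of 17 oligodendrocyte probes and 1 of 9 astrocyte probes rose at an FDR below 1%. At that threshold 0 probes of the neuron, microglia, olfactory bulb and striatum lists were called. Of all probes, 4.53% were called lower and 3.65% higher.

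Partners and cargo adaptors of the motors were counted from fixed lists over the 32 arrays, where 3.65% of all probes were called higher and 4.53% lower at an FDR below 1%. Among 9 probes for kinesin light chains and the kinesin-2 accessory subunit, 2 rose and 1 fell. Klc1, a light chain of kinesin-1, rose by 0.31 at ILMN_3163020 (SE 0.07, adjusted p = 0.0038), with 0.056 and 0.11 at its other probes, which were not called. Kifap3, which binds Kif3a with Kif3b, rose by 0.19 (SE 0.05, adjusted p = 0.0084). Klc4 fell by 0.20 (SE 0.05, adjusted p = 0.0021). On chip 3 the called probes of Klc1 and Kifap3 gave -0.11 and -0.020, against 0.50 and 0.28 between chips 1 and 2 and chip 4. The median of the list was -0.10 on chip 3 and 0.15 between chips. On chip 3 alone, 2 of the 9 probes were lower at an FDR below 1% and 0 were higher, against 1.64% of all probes called lower. Both were probes of Klc2, another light chain of kinesin-1, at -0.45 (adjusted p = 0.0019) and -0.43 (adjusted p = 0.0040), named here after their values were seen. Over the 32 arrays they gave -0.19 and -0.18 and were not called. Between even and odd positions of chips 1, 2 and 4, 3 of the 9 probes were called higher at even ones and 0 lower. At an FDR below 1%, 3.05% of all probes were called there. The list had a median of 0.20 in that comparison, and controls held the even positions of chip 3.

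Among 22 probes for cargo adaptors, 3 rose and 1 fell. Madd, which links Kif1a and Kif1b to vesicles that carry Rab3, rose by 0.32 (SE 0.08, adjusted p = 0.0037), with 0.25 on chip 3. Hap1, an adaptor between huntingtin and motors, rose by 0.20 (SE 0.05, adjusted p = 0.0028), with 0.16 on chip 3. Rhot2, a mitochondrial GTPase that helps to attach kinesin-1, fell by 0.28 (SE 0.05, adjusted p = 5.2e-04), with -0.31 on chip 3. Of the other kinesin heavy chains on the array, 3 of 20 genes were tested, with 4 probes, and 1 probe fell. This was Kifc2, a minus-end motor of neurons, by 0.20 at ILMN_2695158 (SE 0.05, adjusted p = 0.0028), while its other probe gave 0.16 and was not called. On chip 3, 0 of the 22 adaptor probes were called at an FDR below 1%, against 3.15% of all probes. Between even and odd positions of chips 1, 2 and 4, 1 adaptor probe was called, higher at even ones, against 3.05% of all probes.

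Dynein and its activator dynactin carry cargo in the opposite direction, towards the cell body. Of 31 probes on this list, 4 rose and 2 fell. Dync1li2, a light intermediate chain of dynein, rose by 0.37 (SE 0.09, adjusted p = 0.0057), and the light chain gene Dynll2 rose by 0.34 (SE 0.09, adjusted p = 0.0093). Dync1h1, the heavy chain, fell by 0.30 (SE 0.07, adjusted p = 0.0037), and Dctn3, a dynactin subunit, fell by 0.17 (SE 0.04, adjusted p = 0.0041). On chip 3 these probes of Dync1li2, Dynll2, Dync1h1 and Dctn3 gave -0.080, 0.29, -0.42 and -0.15. The only probe of the list called on chip 3 was lower there, Actr1b at -0.37 (adjusted p = 0.0036), with -0.014 over the 32 arrays. Of 34 probes for microtubule-associated proteins, 2 rose and 0 fell. Dcx, a microtubule-binding protein of young neurons, rose by 0.45 (SE 0.12, adjusted p = 0.0053), and Mtap1b, found along axons, rose by 0.25 (SE 0.06, adjusted p = 0.0058). On chip 3 these probes of Dcx and Mtap1b gave 0.43 and 0.037, and 3 other probes of the list were called lower and 0 higher. They were Mapre3 at -0.38 (adjusted p = 0.0043), Mtap2 at -0.38 (adjusted p = 0.0053) and Mtap7d1 at -0.46 (adjusted p = 0.0042), none of them called over the 32 arrays and all, like Actr1b, named after their values were seen. Between even and odd positions of chips 1, 2 and 4, 3.05% of all probes were called at an FDR below 1%. Of the dynein and dynactin probes 1 was called there, and of the microtubule-associated probes 3, all higher at even positions. Controls held the even positions of chip 3, so treatment and position cannot be told apart in its calls. With chip and odd or even position both in the fit, 0 probes of these 5 lists were called at an FDR below 10%.

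The genes whose levels went most closely with the brightest tested probe of Kif1b and of Kif3c were taken over the 32 arrays after removing the means of chip and treatment and of odd or even position. For Kif1b ILMN_2670778 they were Naca (Pearson's r = 0.69, Spearman's rho = 0.63), Gm1673 (r = 0.68, rho = 0.55) and Ubap2l (r = 0.67, rho = 0.70). For Kif3c ILMN_2593410 they were C1qc (r = 0.71, rho = 0.57), Ctsh (r = 0.65, rho = 0.57) and Sart3 (r = 0.63, rho = 0.52). Neither of these is the probe called over the 32 arrays. With the called probe of the same gene, r was 0.085 (rho = 0.087) for Kif1b and 0.40 (rho = 0.083) for Kif3c. The called Kif1b ILMN_2654314 went with Kif3a ILMN_2765513 (r = 0.69, rho = 0.66), a pair named after its value was seen. Kif3a ILMN_2765513, added after its values were seen, went with Susd4 (r = 0.90, rho = 0.91), Rgs7bp (r = 0.89, rho = 0.91) and Mdga2 (r = 0.89, rho = 0.86). The points share chips and tissue make-up, the genes are the highest over all tested probes of other genes, and no p-value is given.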

How the data were processed

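The authors deposited a bead summary table for 32 arrays. The intensities as deposited are mean bead signals for each probe and array, summarized by the array software without normalization between arrays. A detection p-value for each probe was deposited beside them, with the standard error and the number of its beads as other deposited values. Background steps before deposit are not given in the sources used here. The submitters' notes name lumi and limma. Columns were matched to mice by label, with 0 left unmatched.

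As the Methods name, signals were variance-stabilized (rebuilt from bead errors, since lumi was not used here), quantile-normalized over the 32 arrays and tested with limma 3.58.1 in R 4.3.3 (data.table version 1.17.8), without covariates. Probes with detection p-value below 0.01 on at least 24 arrays were tested, with Benjamini-Hochberg adjustment over all 10187. A call is an FDR below 1%, with 10% given beside it. Sequences and figures were handled in Python 3.11.15 with pandas 2.3.3, numpy 2.4.6 and matplotlib 3.10.9. The fits were tested on simulated data. Each p-value weighs a difference against the residual spread between arrays, with 1 array per mouse. Within treatment groups that spread had a median SD of 0.14 over all tested probes. Without terms for chip and position in the fit, it includes both.

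All kinesin probes are described. From each list of partners, the 2 genes with the largest rise and the 2 with the largest fall among called probes are named. For each kinesin gene with a called probe, the 3 genes most like its brightest tested probe are named. Members, lists and rules were chosen with earlier results of these data known. Symbols matched RefSeq (GRCm38.p6) for 10 of 10 kinesins and for 139 of 150 list genes on the array. Alternatives were log2 signal, normexp with an offset of 16, median scaling, filters, array weights, chip and position terms, thresholds and leaving out arrays. Omission of single arrays outside chip 3 and the comparison of probes with the brightest probe of their gene were added after the data were seen.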

Additional observations from a re-analysis of the deposited data

Results flagged for a closer look

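Kif5a ILMN_3065852 was flagged because the difference between ethanol-treated mice and controls was not the same in separate sets of arrays. On chip 3 minus between chips 1 and 2 and chip 4 it was -0.54 (adjusted p = 0.0017 in limma), and it stayed between -0.59 and -0.50 when each of the 32 arrays was left out in turn.

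Single arrays far from the others of their treatment and chip were sought in 80 sets of 4 or 8 arrays, in which chance alone flags about 1 in 20. There were 7, all of them levels of 1 probe in 1 mouse. Control C65 on chip 4 had the highest Kif1a ILMN_2965896, at 9.15 with the next at 8.91, and the highest Kif1b ILMN_2670778, at 12.82 with the next at 12.61. Control C56 on chip 3 had the highest Kif1b ILMN_1239729, at 11.84 with the next at 11.65. Ethanol-treated mouse A3 on chip 1 was at 8.22 for Kif1b ILMN_3034877, with the nearest at 8.01, and at 9.78 for Kif21a ILMN_2718716, with the nearest at 10.02. Control C63 on chip 4 was lowest for Kif3c ILMN_2593410, at 11.04 with the next at 11.56, and control C57 was lowest for Kif5c ILMN_1216662, at 12.10 with the next at 12.38.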

How the results depend on the processing

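No paired analysis was possible because the groups share no mouse numbers. Array number and signal over background limit these results: 5 kinesin probes could not be tested, and chip 3 had 4 mice a group. Over 32 arrays, the 2 kinesin calls became 1 with median scaling, with odd or even position as a covariate or without the control array C66, and 0 with chip as a fixed block, chip as a random block, chip with position, odd positions only or even positions only. Kif1b ILMN_2654314 was higher in every setting run over the 32 arrays. Kif3c ILMN_2590729 was lower in every such setting, at -0.11 with median scaling (adjusted p = 0.26). Median scaling moved the median of all probes to 0.053 and turned 372 higher and 461 lower calls into 181 and 22. On chip 3 the count of 0 became 1 with log2 of the signal or median scaling (Kif5a ILMN_3065852) and 6 at an FDR below 10%. Between chips the count of 1 became 2 with position as a covariate and 7 at an FDR below 10%. Between even and odd positions the count of 1 became 0 with median scaling and 6 at an FDR below 10%. The difference of chip 3 from the other chips went from 1 to 0 with median scaling or with position. The lists of partners gave 16 calls, 3 with median scaling, 0 with chip and position, and 44 at an FDR below 10%. Probes against the brightest of their gene gave 2 calls, 1 with median scaling and 0 with chip and position. When each array was left out in turn, the count ranged from 1 to 2 over the 32 arrays, from 0 to 2 on chip 3 (2 without C52, 1 without A50), from 1 to 2 between chips (2 without A28 or A29) and from 1 to 2 for position (2 without A21 or A32).

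Every value that changed sign belonged to a probe not called in that comparison; the causes were not tested. Over the 32 arrays, the values were 0.015 for Kif1a and 0.041 for Kif5a ILMN_2645752 with median scaling, 0.0027 and 0.046 with position as a covariate, and 0.034 and 0.0052 at even positions only, where Kif3b gave -0.014. At odd positions only, Kif1b ILMN_2647921 gave -0.040 and Kif5a ILMN_2645752 gave 0.099. With chip as a fixed block, which repeats the differences of chip 3, Kif1b ILMN_1239729 gave 0.0091, Kif1b ILMN_2647921 -0.012, Kif21a -0.097, Kif3a ILMN_2621148 -0.080, Kif3b -0.036, Kif5a ILMN_3143833 -0.28, Kif5a ILMN_3065852 -0.34 and Kif5c -0.12. With position added to that block, Kif1b ILMN_2647921 gave -0.028, Kif3a ILMN_2621148 -0.054, Kif3a ILMN_2765513 -0.10, Kif3c ILMN_2593410 -0.12, Kif5a ILMN_3143833 -0.030, Kif5a ILMN_3065852 -0.19 and Kif5c -0.12. With chip as a random block, Kif5a ILMN_3143833 gave -9.6e-05 and Kif5a ILMN_3065852 -0.052. On chip 3 with median scaling, Kif1b ILMN_1239729 gave -0.0057 and Kif3c ILMN_2593410 -0.011. Leaving out arrays of chip 3 gave -0.011 to 0.057 for Kif1b ILMN_1239729, -0.0090 to 0.21 for Kif1b ILMN_2654314, -0.044 to 0.026 for Kif1b ILMN_2647921, -0.071 to 0.022 for Kif3b and -0.028 to 0.042 for Kif3c ILMN_2593410. Between chips with median scaling, Kif1b ILMN_2670778 gave 0.056. For even minus odd positions, median scaling gave -0.050 for Kif3a ILMN_2621148, -0.022 for Kif3c ILMN_2590729 and -0.072 for Kif5c, and leaving out C66 gave 0.0051 for Kif1b ILMN_2647921 and -0.0060 for Kif3c ILMN_2590729. For chip 3 against the other chips with position as a covariate, Kif3a ILMN_2765513 gave -0.31 and Kif3b 0.025. Against the brightest probe, with chip and position, Kif3a ILMN_2621148 gave 0.051 and Kif5a ILMN_2645752 gave 0.13.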

Other observations

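The remaining tested kinesins had these closest genes by residual level over the 32 arrays, chosen after the values were seen and given without a test. Kif1a went most closely with Ctr9 (Pearson's r = 0.70, Spearman's rho = 0.69), Kif3b with Otub2 (r = 0.69, rho = 0.63), and Kif5a ILMN_3065852 with Myst2 (r = 0.63, rho = 0.61). Kif5c went most closely with Gpsn2 (r = 0.75, rho = 0.57), and Kif21a with LOC100045780 (r = 0.68, rho = 0.64) and then Mertk (r = 0.67, rho = 0.68). Among the genes closest to Kif3b was Dnm1l (r = 0.69, rho = 0.67), which drives mitochondrial fission.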
